A study of Mus musculus with 6 samples.

Results

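The enteroendocrine hormones and granins described here are 10 genes picked by symbol from the deposited count table of 47643 genes: the peptide hormone genes Gcg, Sst, Pyy, Nts, Sct, Gip and Cck and the granin genes Chga, Chgb and Scg2. All 10 were found and all 10 had enough counts to be tested. Polyadenylated RNA came from 6 intestine samples of male C57BL/6 mice aged 7 to 8 weeks, all injected with tamoxifen and then kept for 2 weeks on a diet with 60% fat. Of these samples, 3 carried the MycΔIE, ERT2 genotype, a tamoxifen-inducible deletion of the transcription factor gene Myc (Myc-deleted), and 3 were Mycfl/fl, with the floxed gene (control). The labels do not name the promoter that drives the recombinase or say whether the controls carry one, so in every difference the loss of Myc and recombinase activity as such cannot be told apart. Nor do they say whether any animals were pooled.

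Enteroendocrine cells are scattered secretory cells of the gut epithelium that sense the contents of the lumen and release peptide hormones into blood and tissue. They arise from crypt stem cells through the transcription factor Neurog3, and subtypes make different hormones along the length of the gut. Prohormones and granins are packed together into dense-core vesicles, where convertases cut them into active peptides and granins help the vesicle form. In bulk tissue, fewer cells of a type and less RNA per cell cannot be told apart.

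Of the 10 genes, 4 rose in the Myc-deleted intestines: Gcg (1.96-fold), Sst (1.71-fold), Scg2 (1.52-fold) and Chgb (1.45-fold). None fell by edgeR, DESeq2 or limma voom, and 0 were lower at an unadjusted edgeR p under 0.05. By the same test, 4.22% of all 12720 genes tested rose and 3.73% fell (edgeR quasi-likelihood test, Benjamini-Hochberg adjusted p under 0.05). These are 537 risers and 474 fallers, and upper-quartile scaling turned that balance, with 449 risers and 591 fallers, while 3 members still rose. The log2 fold change was above 0 for 9 of the 10, and for 49.8% of all genes tested. Its median was 0.50 over the 10 genes and -0.00212 over all genes tested. Every Myc-deleted library stood above every control for 7 of the 10, the risers and Cck, Nts and Chga, where 14.0% of all genes tested showed that order. The calls of Gcg and Sst held in each of the 6 runs that left out 1 library, that of Chgb in 2 and that of Scg2 in 0. The members were listed with earlier results of these data known, so the counts describe the list and do not test it.

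The stretches of 120 bases before the RefSeq transcription start (GRCm38.p6) are shown for the 4 genes that rose, for Chga as the remaining granin, for Sct as the hormone with the smallest difference, and for Cck because its promoter holds the E-box that Myc and its partner Max bind. Capitals mark TGACGTCA, the cAMP response element, first described in the rat somatostatin gene, its variant TGACGTAA, the E-box CACGTG, and TATAAA or its reverse complement.
Gcg, minus strand, chr2:62483654-62483773: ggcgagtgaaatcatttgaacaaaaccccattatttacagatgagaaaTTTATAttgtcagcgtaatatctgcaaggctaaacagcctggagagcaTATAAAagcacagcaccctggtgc
Sst, minus strand, chr16:23890845-23890964: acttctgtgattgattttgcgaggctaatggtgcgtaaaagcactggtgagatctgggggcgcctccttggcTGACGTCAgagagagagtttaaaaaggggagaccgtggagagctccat
Chgb, plus strand, chr2:132781522-132781641: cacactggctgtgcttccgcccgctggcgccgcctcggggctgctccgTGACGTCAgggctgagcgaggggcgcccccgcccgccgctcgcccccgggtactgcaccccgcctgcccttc
Scg2, minus strand, chr1:79440027-79440146: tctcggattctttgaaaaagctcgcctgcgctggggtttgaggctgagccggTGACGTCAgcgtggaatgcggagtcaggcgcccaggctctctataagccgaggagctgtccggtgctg
Chga, plus strand, chr12:102554821-102554940: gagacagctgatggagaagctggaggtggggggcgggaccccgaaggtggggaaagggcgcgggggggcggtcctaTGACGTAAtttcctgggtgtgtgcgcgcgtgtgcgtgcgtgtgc
Sct, minus strand, chr7:141279134-141279253: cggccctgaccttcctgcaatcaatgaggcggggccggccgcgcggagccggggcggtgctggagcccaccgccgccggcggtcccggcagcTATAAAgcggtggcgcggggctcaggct
Cck, minus strand, chr9:121495695-121495814: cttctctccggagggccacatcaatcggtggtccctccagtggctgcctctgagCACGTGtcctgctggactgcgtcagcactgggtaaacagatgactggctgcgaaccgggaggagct

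All 10 members had a promoter in the RefSeq table, and the 250 bases before each start were searched on both strands for the 4 motifs, which do not overlap each other in these windows. TGACGTCA stood in 3 of the 10, at 48 to 41 bases before the start in Sst, 72 to 65 in Chgb and 68 to 61 in Scg2. These are 3 of the 4 genes that rose, and the other, Gcg, has no such letters in its window. This motif stood in 1.55% of all 32851 promoters of that source and in 2.51% of the 12200 that belong to genes tested here. The variant TGACGTAA stood in Chga, 44 to 37 bases before the start, in 0.447% of all promoters and in 0.7% of those of tested genes. CACGTG stood in Cck alone among the members, 66 to 61 bases before the start, in 6.02% of all promoters and in 8.15% of those of tested genes. TATAAA or its reverse complement stood in Gcg and Sct, in 12.4% of all promoters and in 6.65% of those of tested genes. The matches describe letters in these windows, binding was not measured, and the motifs were chosen with the fold changes known.

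Whether the deletion shows in the libraries themselves was checked first. Myc had 36, 47 and 63 counts in Myc-deleted libraries 1 to 3, against 59, 70 and 59 in control libraries 1 to 3. The log2 fold change of -0.41 ± 0.22 SE was not called (edgeR adjusted p = 0.318; two-sided exact permutation p = 0.1, the smallest that 3 against 3 can give). The level of Myc in library 3 of the Myc-deleted group therefore does not check its label. Library totals were 10636658 to 11157715 expected counts in the Myc-deleted group and 9956938 to 11328693 in the controls.

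Liver is the organ given in the extraction protocol, against intestine everywhere else in the labels. The 12 epithelial markers, Epcam, the villin gene Vil1 and the intestinal factor genes Cdx1 and Cdx2 among them, summed to 26830 to 28990 CPM (counts scaled to library size with TMM factors) in Myc-deleted libraries and 27560 to 30350 in controls. Of 12 hepatocyte markers 6 could be tested and 2 fell. Alb, the albumin gene that hepatocytes express at very high levels, had 1 to 10 counts in Myc-deleted libraries and 19 to 37 in controls (log2 fold change -2.15 ± 0.52 SE, edgeR adjusted p = 0.0326, which stayed under the threshold in 1 of the 6 runs that left out 1 library). Tat, the gene of tyrosine aminotransferase, had 156, 52 and 173 counts in Myc-deleted libraries 1 to 3, against 244, 366 and 398 in control libraries 1 to 3 (log2 fold change -1.46 ± 0.34 SE, edgeR adjusted p = 0.0276). The Tat call was lost without control library 2 (adjusted p = 0.0892) or 3 (0.0926) and with DESeq2 (0.0631). The list summed to 1422 to 1471 CPM in Myc-deleted libraries and 1341 to 1527 CPM in controls, most of it Hnf4a and Cps1, which gut epithelium also expresses, and the 6 markers not tested had at most 10 counts. Several of the member genes are also made by enteric neurons or pancreatic islets. Of 21 enteric neuron markers, 19 had at most 10 counts in every library, and the pan-neuronal genes Elavl3 and Elavl4 had at most 3. The summed neuron list ranged from 24.1 to 34.8 CPM in Myc-deleted libraries and from 19.1 to 21.4 CPM in controls, of which Ret, a receptor gene, and Tac1 made up 87.3% to 91.8% in Myc-deleted libraries and 77.7% to 88.0% in controls. Tac1 is a gene that enterochromaffin cells also express, and the part of the neuron list in the results was not tested. The insulin genes Ins1 and Ins2 were at 0 in all libraries, and the 9 islet markers summed to 0.915 to 2.58 CPM in the Myc-deleted group and 1.04 to 1.53 CPM in the controls. Of 10 pancreatic acinar markers only Cela1, an elastase gene, could be tested, and it rose, with 73, 85 and 79 counts in Myc-deleted libraries 1 to 3, against 33, 40 and 34 in control libraries 1 to 3 (log2 fold change 1.10 ± 0.18 SE, edgeR adjusted p = 0.0055). The other 9 had at most 5 counts, and Prss2, Cpa1, Pnlip, Cela2a and Cela3b were at 0 in all libraries. Smooth muscle markers (8 genes) summed to 24.2 to 28.1 CPM in the Myc-deleted libraries, against 37.3, 102.4 and 24.0 CPM in control libraries 1 to 3, so that control library 2 stood apart. Without control library 2 the log2 fold change was 0.98 for Gcg, 0.70 for Sst, 0.49 for Chgb (edgeR adjusted p = 0.105) and 0.64 for Scg2 (adjusted p = 0.112). No tested epithelial, tuft, Paneth, goblet, smooth muscle, neuron or islet marker passed with edgeR or limma voom, while DESeq2 called Spink4 of goblet cells higher and Actg2 of smooth muscle lower. At an unadjusted edgeR p under 0.05, 2 epithelial, 4 Paneth, 2 goblet and 2 neuron markers were higher, and 1 epithelial and 3 smooth muscle markers were lower. The genes highest in CPM of these lists were not called (edgeR adjusted p = 0.0879 to 0.839), with log2 fold changes of -0.16 for Krt8 (epithelium), 0.19 for Trpm5 (tuft cells), 0.31 for Lyz1 (Paneth cells), -0.24 for Fcgbp (goblet cells), -0.08 for Smtn (smooth muscle), 0.46 for Ret (neurons) and 0.81 for Iapp (islets). Smtn does not stand for its list. The log2 fold changes of the 7 tested smooth muscle genes ran from -1.83 to -0.08, with a median of -1.04.

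Levels are compared between genes as CPM per kilobase of exon. In the Myc-deleted libraries the order was Sct (84.6 ± 6.72), Nts (78.5 ± 11.3), Pyy (72.9 ± 6.19), Sst (53.6 ± 5.79), Gcg (30.8 ± 4.29), Chgb (20.2 ± 2.78), Chga (16.8 ± 4.17), Gip (9.86 ± 2.699), Scg2 (4.67 ± 0.292) and Cck (3.34 ± 0.938), each as mean CPM per kilobase with SD over 3 libraries. The libraries of Sct and Nts, of Nts and Pyy, of Chgb and Chga and of Scg2 and Cck overlapped in that group. In the controls the order was Sct (84.9 ± 6.47), Pyy (66.6 ± 3.896), Nts (63.9 ± 2.19), Sst (31.3 ± 3.83), Gcg (15.7 ± 2.24), Chgb (13.99 ± 1.37), Chga (12.1 ± 0.659), Gip (7.93 ± 1.22), Scg2 (3.06 ± 0.521) and Cck (2.08 ± 0.560). There the libraries of Pyy and Nts, of Gcg and Chgb and of Scg2 and Cck overlapped. Nts, Pyy and Gcg, hormone genes of the lower small intestine and colon, thus stood above Gip and Cck, hormone genes of the duodenum and jejunum, in both groups. Sct, outside that comparison, had the highest mean of all members in both groups, so the order as a whole does not sort the hormones by region.

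Some genes that mark regions of the gut also differed between the groups, alongside Gcg and Sst. Over all genes tested, 4.22% rose and 3.73% fell. Among 9 tested ileal genes, 2 rose. Fgf15, the gene of the ileal hormone that restrains bile acid synthesis in the liver, had 3342, 6328 and 5034 counts in Myc-deleted libraries 1 to 3, against 1441, 885 and 1298 in control libraries 1 to 3 (log2 fold change 1.95 ± 0.26 SE, edgeR adjusted p = 0.00236). Gata6, a GATA factor gene, had a log2 fold change of 0.34 ± 0.09 SE (edgeR adjusted p = 0.0425) and passed in 1 of the 6 runs that left out 1 library, but not with DESeq2 (0.0628) or upper-quartile scaling (0.0642). Fabp6, the bile acid binding protein gene of the ileum and the most abundant of the list, stood at 10559 ± 951 CPM in the Myc-deleted group and 11004 ± 1462 CPM in the controls. Of 7 tested duodenal and jejunal genes, 2 rose and 1 fell. Lct, the lactase gene, had 74, 327 and 205 counts in Myc-deleted libraries 1 to 3, against 16, 12 and 37 in control libraries 1 to 3 (log2 fold change 3.15 ± 0.57 SE, edgeR adjusted p = 0.00915), a call lost without control library 2 (0.0546) and with limma voom (0.0642). Its log2 fold change ranged from 2.60 without Myc-deleted library 2 to 3.83 without control library 3. Gata4, a factor gene of the proximal small intestine, rose as well (log2 fold change 1.496 ± 0.275 SE, edgeR adjusted p = 0.00973). Slc40a1, the gene of the iron exporter ferroportin, fell, with 154, 89 and 89 counts in the Myc-deleted libraries, against 596, 973 and 1088 in the controls (log2 fold change -3.05 ± 0.26 SE, edgeR adjusted p = 0.000397). Of 4 tested colonic genes, 2 fell. Car4, a carbonic anhydrase gene, stood at 80.6 ± 17.9 CPM in the Myc-deleted group and 213.9 ± 20.7 CPM in the controls (log2 fold change -1.41 ± 0.14 SE, edgeR adjusted p = 0.00085), and Mettl7b had a log2 fold change of -0.34 ± 0.09 SE (adjusted p = 0.049), a call that held in 1 of 6 runs that left out 1 library.

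Summed over each list, colonic genes had 221.7 to 240.4 CPM in Myc-deleted libraries and 363.9 to 417 CPM in controls, without overlap. Most of that difference lay in Car4. Of the 4 tested colonic genes, 2 had a log2 fold change above 0 (at most 0.03), and the list median was -0.16. Aqp8 and Hoxb13, further genes of the colonic list, were at 0 in all libraries. The ileal sum was 19590 to 20600 CPM in the Myc-deleted group and 17550 to 20370 CPM in the controls, which overlapped. The duodenal and jejunal sum also overlapped, at 2134 to 2352 CPM in the Myc-deleted group and 1766 to 2477 CPM in the controls. Most of it was Slc5a1, with 1950 to 2219 CPM in Myc-deleted libraries and 1654 to 2288 CPM in controls. That sum therefore says little about Lct, Gata4 or Slc40a1. The hormone genes themselves differ along the gut, and the part of these regional differences in the results for the members was not tested.

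Proglucagon and somatostatin showed the largest rises. Gcg (ENSMUSG00000000394.15, chromosome 2, 62474530 to 62483650, minus strand) encodes the precursor that L cells cut into the incretin GLP-1 and the intestinal growth factor GLP-2. It had 430, 500 and 565 counts in Myc-deleted libraries 1 to 3, against 199, 279 and 258 in control libraries 1 to 3. On the CPM scale these were 39.3, 46.4 and 52.1 in the Myc-deleted group and 19.8, 24.1 and 26.4 in the controls, so that the lowest Myc-deleted library stood well above the highest control. The log2 fold change was 0.97 ± 0.13 SE (95% interval 0.68 to 1.27, edgeR adjusted p = 0.00243), and it ranged from 0.87 to 1.07 when 1 library was left out. Sst (ENSMUSG00000004366.3, chromosome 16, 23889573 to 23890958, minus strand) encodes somatostatin, the hormone of D cells that restrains the release of other gut hormones. It had 33.9, 41.6 and 40.4 CPM in Myc-deleted libraries 1 to 3, against 21.5, 20.6 and 25.7 CPM in control libraries 1 to 3. All Myc-deleted libraries exceeded all controls, and the log2 fold change was 0.78 ± 0.12 SE (95% interval 0.51 to 1.04, edgeR adjusted p = 0.00399).

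**Figure D1:**
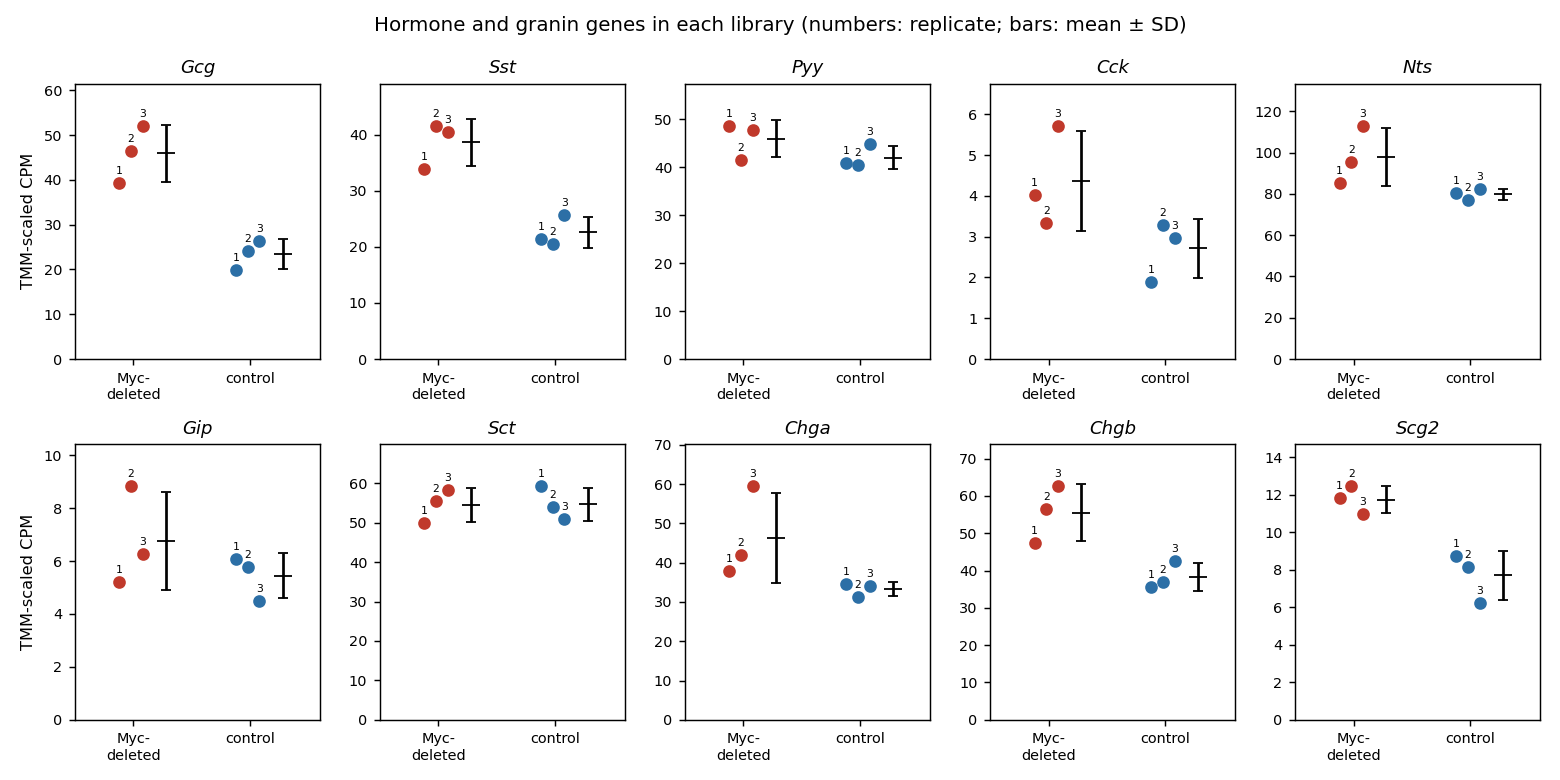
TMM-scaled CPM (y axis, from 0) of the 10 genes in each Myc-deleted library (red) and control library (blue), numbered by replicate, with mean and SD bars over 3 libraries. The 2 groups are fully separated for Gcg, where Myc-deleted libraries lie at 39.3 to 52.1 CPM and controls at 19.8 to 26.4 CPM, and overlap for Sct.

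The granins, acidic proteins of the dense-core vesicle, differed in how far their rise held. Chgb (ENSMUSG00000027350.8, chromosome 2, 132781278 to 132795079, plus strand), the gene of chromogranin B, had 47.4, 56.4 and 62.6 CPM in Myc-deleted libraries 1 to 3, against 35.6, 36.8 and 42.6 CPM in control libraries 1 to 3. The groups did not overlap, and the log2 fold change was 0.53 ± 0.12 SE (edgeR adjusted p = 0.0215). That call was lost without control library 1 (adjusted p = 0.0822), control library 2 (0.105), Myc-deleted library 2 (0.0705) or Myc-deleted library 3 (0.0610). Scg2 (ENSMUSG00000050711.7, chromosome 1, 79434669 to 79440120, minus strand), the gene of secretogranin II, stood at 11.8, 12.4 and 10.98 CPM in the Myc-deleted libraries, against 8.75, 8.13 and 6.23 CPM in the controls. It was higher in each Myc-deleted library than in any control (log2 fold change 0.61 ± 0.15 SE, edgeR adjusted p = 0.0423). The Scg2 call was lost in each run that left out 1 library (adjusted p = 0.0545 without control library 1 to 0.137 without Myc-deleted library 2), with DESeq2 (adjusted p = 0.0615) and with upper-quartile scaling (0.0574).

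Chga, the gene of chromogranin A and a common marker of enteroendocrine and above all enterochromaffin cells, had 37.8, 41.9 and 59.4 CPM in Myc-deleted libraries 1 to 3, against 34.7, 31.3 and 34.1 CPM in control libraries 1 to 3. The groups did not overlap, but the spread in the Myc-deleted group (SD 11.5 CPM) was several times that in the controls (SD 1.82 CPM) with library 3 the highest. At 0.48 ± 0.15 SE, the log2 fold change of Chga missed the threshold (edgeR adjusted p = 0.0955). With Myc-deleted library 3 left out it was 0.25, and with library 1 of that group left out it was 0.60 (adjusted p = 0.0344), and it passed with DESeq2 (0.0452) and without a filter on low counts (0.0292). Tac1, the substance P precursor gene of enterochromaffin cells and neurons, had 173 counts in the same Myc-deleted library 3, against 36 and 52 in libraries 1 and 2 and 37 to 38 in the controls. Tph1, which makes the serotonin precursor in enterochromaffin cells, had 39 counts there, against 25 and 33 in the other Myc-deleted libraries and 36 to 48 in the controls. Slc18a1, a further serotonin gene, went the other way, with 177 counts there. It had 150 and 139 counts in Myc-deleted libraries 1 and 2 and 79 to 132 in the controls. Its groups did not overlap, but it was not called (log2 fold change 0.47 ± 0.16 SE, edgeR adjusted p = 0.122).

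The remaining hormone genes did not pass. Nts, the neurotensin gene and by counts the most abundant of the hormones, had 85.2, 95.7 and 113.1 CPM in Myc-deleted libraries 1 to 3, against 80.3, 76.9 and 82.2 CPM in control libraries 1 to 3. Its groups were separated by a narrow gap (log2 fold change 0.30 ± 0.10 SE, edgeR adjusted p = 0.122). That log2 fold change became 0.18 with Myc-deleted library 3 left out and 0.39 with library 1 of that group left out (adjusted p = 0.0408). Cck, the gene of cholecystokinin, which makes the gallbladder contract, had only 44, 36 and 62 counts in the Myc-deleted libraries, against 19, 38 and 29 in the controls. In CPM its groups were just separated, with 3.34 in the lowest Myc-deleted library and 3.29 in the highest control (log2 fold change 0.68 ± 0.29 SE, edgeR adjusted p = 0.207). Gip, the gene of the incretin of K cells, had 5.22, 8.82 and 6.27 CPM in the Myc-deleted libraries, against 6.06, 5.79 and 4.50 CPM in the controls. The groups of Gip overlapped (log2 fold change 0.31 ± 0.23 SE, edgeR adjusted p = 0.478). The 95% interval of the log2 fold change reached from 0.03 to 1.33 for Cck and from -0.20 to 0.82 for Gip, so that a rise like that of Chgb lies within both.

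Pyy and Sct had the narrowest intervals around 0. Pyy, the gene of peptide YY, which L cells release together with GLP-1 after meals, had 48.7, 41.5 and 47.8 CPM in Myc-deleted libraries 1 to 3, against 40.9, 40.4 and 44.9 CPM in control libraries 1 to 3. Its groups overlapped (log2 fold change 0.13 ± 0.09 SE, 95% interval -0.07 to 0.34, edgeR adjusted p = 0.449). Sct, the gene of secretin, which stimulates bicarbonate secretion by the pancreas, had 49.9, 55.4 and 58.4 CPM in the Myc-deleted libraries, against 59.2, 54.0 and 51.0 CPM in the controls. The ranges were nearly the same (log2 fold change -0.00467 ± 0.09 SE, 95% interval -0.21 to 0.20, edgeR adjusted p = 0.983). The interval of Sct lies below that of Gcg, which starts at 0.68.

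**Figure D2:**
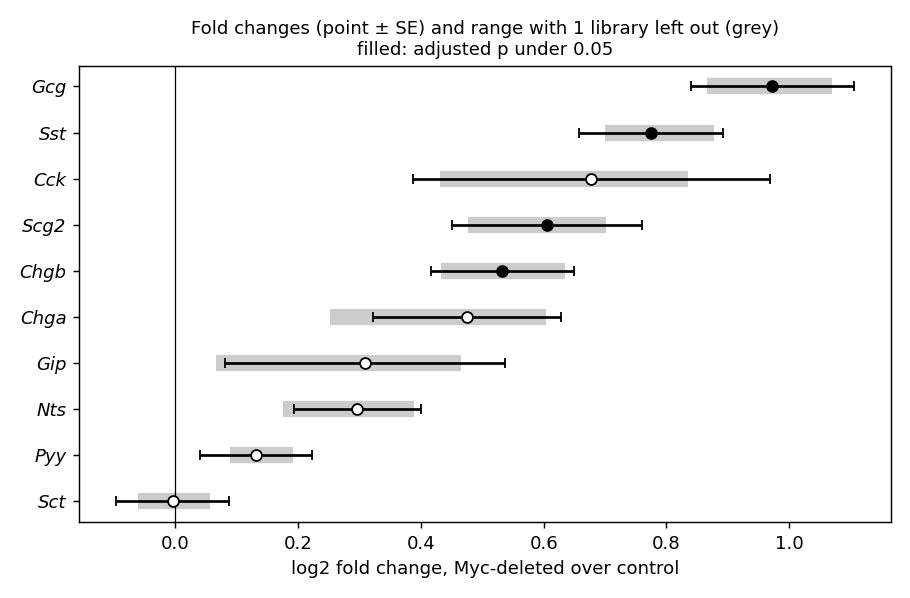
Log2 fold change of Myc-deleted over control (x axis) for each of the 10 genes, as point and SE from edgeR, filled where the adjusted p is under 0.05. Grey bands span the 6 runs that leave out 1 library; that of Gcg runs from 0.87 to 1.07 and that of Sct straddles 0.

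The mix of hormone transcripts within a library was set out as each gene's share of the summed counts of the 7 hormone genes, a measure that needs no scaling between libraries. The sum was 2909, 3153 and 3510 counts in Myc-deleted libraries 1 to 3 and 2310, 2603 and 2326 in control libraries 1 to 3. Gcg made up 14.8%, 15.9% and 16.1% of it in the Myc-deleted libraries, against 8.62%, 10.7% and 11.1% in the controls. The exact 95% binomial interval, which covers counting error only, ran from 13.5% to 16.1% in the lowest Myc-deleted library and from 9.84% to 12.4% in the highest control. Sst made up 13.1% ± 0.937 in the Myc-deleted group and 9.78% ± 0.922 in the controls (SD, n = 3 each). Sct took a smaller share in every Myc-deleted library (18.0% to 18.9%) than in any control (21.5% to 25.8%), while its CPM did not differ by more than the spread. Nts held the largest share in each library, with 33.2% ± 1.53 in the Myc-deleted group and 34.6% ± 0.413 in the controls. Pyy made up 15.7% ± 2.23 in the Myc-deleted group and 18.2% ± 0.586 in the controls. Gip and Cck together stayed at a few percent in every library. Shares sum to the whole, so a larger share of Gcg and Sst lowers the others, and no test was run on them.

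**Figure D3:**
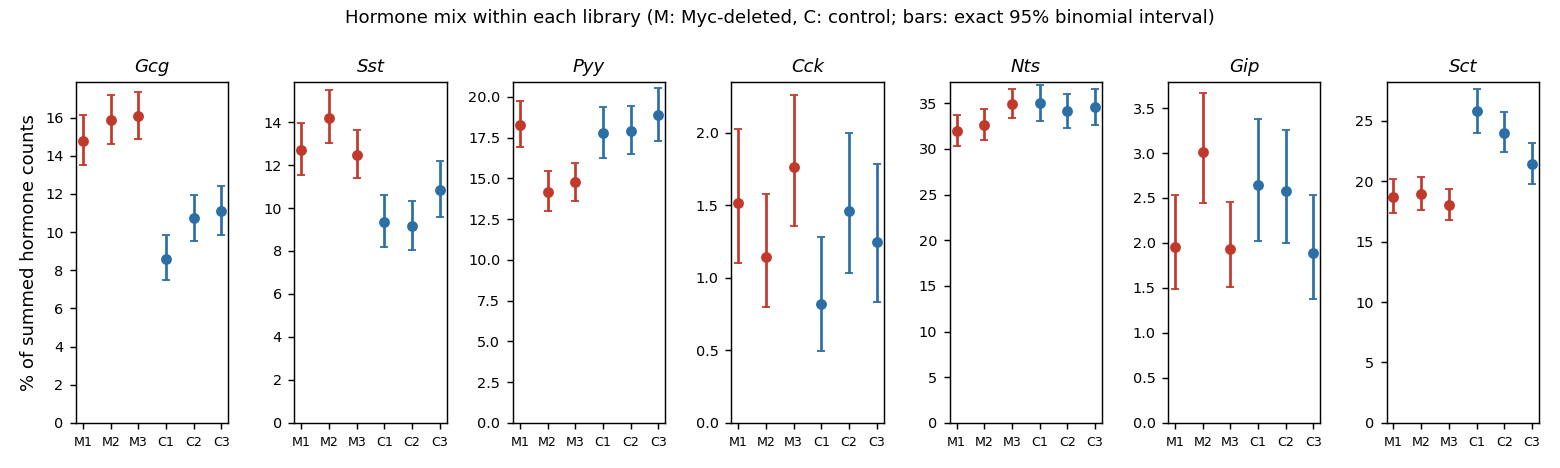
Share of each hormone gene in the summed hormone counts (y axis, percent, from 0) in Myc-deleted libraries (M1 to M3, red) and control libraries (C1 to C3, blue), with exact 95% binomial intervals. Gcg lies at 14.8% to 16.1% in the Myc-deleted libraries and 8.62% to 11.1% in the controls, and Sct lies lower in the Myc-deleted libraries.

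Relative to Chga and to Chgb, Gcg was higher in every Myc-deleted library than in any control. The log2 ratio of Gcg to Chgb counts was -0.27 ± 0.00852 in the Myc-deleted group and -0.72 ± 0.12 in the controls (SD, n = 3 each), without overlap. The log2 ratio of Gcg to Chga was 0.00606 ± 0.175 in the Myc-deleted group and -0.52 ± 0.252 in the controls, again without overlap. Relative to Scg2 the Gcg groups overlapped, at 1.96 ± 0.261 in the Myc-deleted group and 1.61 ± 0.453 in the controls. Sst was also higher relative to Chgb, without overlap. Its log2 ratio to Chgb was -0.52 ± 0.1 in the Myc-deleted group and -0.77 ± 0.0647 in the controls. Relative to Chga and to Scg2 the Sst groups overlapped. For Sct the ratios were lower, and its log2 ratio to Chgb was -0.02 ± 0.0864 in the Myc-deleted group and 0.52 ± 0.24 in the controls. Sct was lower relative to each of the 3 granins in every Myc-deleted library than in any control. The same order held for Pyy relative to Chgb and Scg2 and for Nts relative to Chga and Chgb, so it was not particular to Sct. The groups overlapped for Pyy relative to Chga and for Nts relative to Scg2. The library with the highest level was not the same for all members. Myc-deleted library 3 held the highest CPM of that group for 6 of the 10 genes and Myc-deleted library 1 the lowest for 7, while the highest control was library 3 for 5 genes and library 1 for 4.

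Around the members, 131 other genes in 9 lists of enteroendocrine function were looked up, of which 72 had enough counts to be tested. Of these 72, 4 rose and 1 fell (5.56% and 1.39%, where 4.22% and 3.73% of all genes tested did so), and the median log2 fold change was 0.11. It was above 0 for 47 of the 72, where 49.8% of all genes tested were above 0. Every Myc-deleted library stood above every control for 16 of the 72, where 14.0% of all genes tested showed that order. For 5 of the 72 every Myc-deleted library stood below every control. The share of all genes tested in that lower order was not counted, so the 16 and the 5 cannot be weighed against each other. The 9 tested pan-enteroendocrine markers other than hormones and granins had a median of 0.20 and no call by edgeR, DESeq2 or limma voom (1 at an unadjusted edgeR p under 0.05, the carboxypeptidase gene Cpe, higher), and summed to 47.3 to 52.2 CPM in Myc-deleted libraries and 41.7 to 46.7 CPM in controls. Among transcription factors 0 of 9 tested genes passed by the same 3 tools, with a median of -0.06 (1 at an unadjusted edgeR p under 0.05, Foxa2, higher). Foxa1, a forkhead factor gene and the most abundant of them, stood at 24.1 CPM in the Myc-deleted group and 25.5 CPM in the controls. Neurod1, which acts downstream of Neurog3, had 13 to 16 counts in Myc-deleted libraries and 15 to 21 in controls.

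Of 9 tested prohormone processing genes, 1 rose. Pam, the enzyme that adds the terminal amide many gut peptides need for activity, stood at 40.2 CPM in the Myc-deleted group and 28.1 CPM in the controls (log2 fold change 0.51 ± 0.12 SE, edgeR adjusted p = 0.0302), but passed in no run that left out 1 library (adjusted p = 0.0504 to 0.0774). Pcsk1, the convertase that cuts proglucagon to GLP-1, stood at 10.97 CPM in the Myc-deleted group and 9.22 CPM in the controls and did not pass (log2 fold change 0.25 ± 0.15 SE, edgeR adjusted p = 0.367). None of 14 tested genes of other granins and vesicle proteins passed by edgeR, DESeq2 or limma voom (median 0.14), and 3 were higher at an unadjusted edgeR p under 0.05, Ptprn, Resp18 and Cpe, which is also in the marker list. The highest of them in CPM, which is not corrected for length, was Syt7, a calcium sensor of vesicle release, with a log2 fold change of 0.11 ± 0.10 SE (edgeR adjusted p = 0.549). Among 4 other tested hormone genes no gene passed with any of these tools either, and 1, Tac1, was higher at an unadjusted edgeR p under 0.05. Ghrl, the ghrelin gene, had 20 to 23 counts in Myc-deleted libraries and 28 to 33 in controls (log2 fold change -0.55 ± 0.26 SE, edgeR adjusted p = 0.258), and Adm, the most abundant of them, had a log2 fold change of 0.46 ± 0.21 SE (adjusted p = 0.245).

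Of 8 tested serotonin genes, Gch1 rose, with a list median of -0.18. At an unadjusted edgeR p under 0.05, 2 of the 8 were higher, Gch1 and Slc18a1, and 1 was lower, Maoa. Gch1 encodes the first enzyme in making tetrahydrobiopterin, the cofactor of tryptophan hydroxylase (log2 fold change 0.53 ± 0.12 SE, edgeR adjusted p = 0.0218), and its call was lost without control library 2 (adjusted p = 0.0905) or 3 (0.0795). Of 10 tested nutrient and bile acid sensors, Gpr39 rose. Gpr39, the gene of a zinc-sensing receptor, had 175, 251 and 224 counts in Myc-deleted libraries 1 to 3, against 113, 91 and 68 in control libraries 1 to 3, and showed the largest change of the related genes that passed (log2 fold change 1.204 ± 0.20 SE, edgeR adjusted p = 0.00569). It passed in each run that left out 1 library. Ffar1, a receptor for long-chain fatty acids that triggers hormone release, had 37 to 51 counts in Myc-deleted libraries and 34 to 43 in controls and did not pass (adjusted p = 0.733). Of 20 hormone receptor genes only 3 had enough counts to be tested, none passed by edgeR, DESeq2 or limma voom, and 8 were at 0 in all libraries. Sort1, a neurotensin-binding sorting receptor, was the most abundant and the 1 gene at an unadjusted edgeR p under 0.05, and had a log2 fold change of -0.28 ± 0.10 SE (edgeR adjusted p = 0.124). Glp1r, the GLP-1 receptor gene, had at most 4 counts in Myc-deleted libraries and at most 10 in controls.

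Of 13 peptidases that can cleave the hormones, Mme rose and Nln fell. Mme, the gene of neprilysin, stood at 145 CPM in the Myc-deleted group and 110 CPM in the controls (log2 fold change 0.40 ± 0.10 SE, edgeR adjusted p = 0.0428), and Nln, the gene of neurolysin, which cuts neurotensin, at 19.2 CPM in the Myc-deleted group and 26.7 CPM in the controls (log2 fold change -0.48 ± 0.12 SE, edgeR adjusted p = 0.0336). The Mme call held in 1 of 6 runs that left out 1 library, that without Myc-deleted library 3 (adjusted p = 0.0164; 0.0578 to 0.192 in the others), and the Nln call held in 1 of 6, that without Myc-deleted library 2 (0.0274; 0.0536 to 0.139 in the others). Mme also missed the threshold with upper-quartile scaling (adjusted p = 0.0611). Dpp4, which inactivates GLP-1 and the GIP peptide, stood at 835 CPM in the Myc-deleted group and 830 CPM in the controls (log2 fold change 0.01 ± 0.09 SE, edgeR adjusted p = 0.970).

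**Figure D4:**
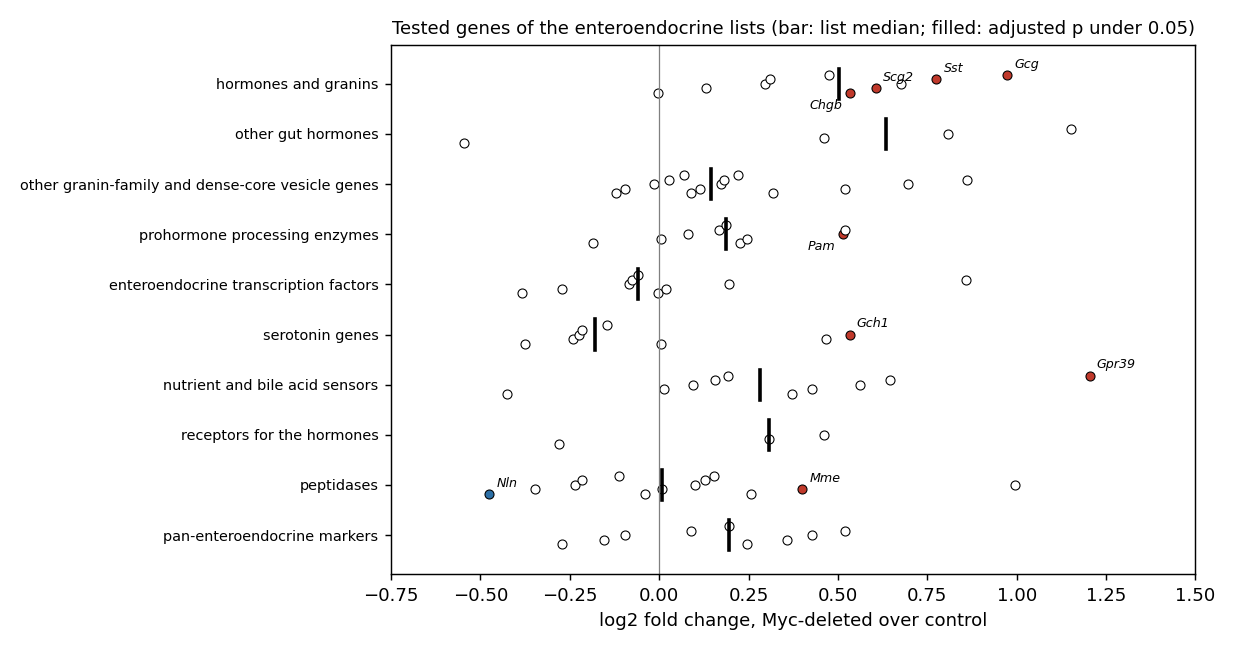
Log2 fold change of Myc-deleted over control (x axis) for every tested gene of the hormone and granin list and of 9 related lists (rows), with the list median as a bar and genes with an adjusted p under 0.05 filled and named. The hormone and granin row has its median at 0.50, and the transcription factor row at -0.06.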

How the data were processed

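The authors deposited RSEM expected counts per gene with no scaling between libraries. Libraries were stranded mRNA preparations, per the labels, and cutadapt, STAR, Picard, RSEM and the build mm10 are named in the submitters' processing notes; the sources used here give neither versions nor the annotation release nor the strand setting of counting. Of the genes in the table, 99.1% matched a GENCODE M21 symbol by Ensembl identifier. The counts of the 10 members were whole numbers in every library, and no annotated gene overlaps them.

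Expected counts were rounded and tested with edgeR 4.0.16 in R 4.3.3 (filterByExpr, minimum count 10 and minimum total 15; TMM; quasi-likelihood F test; Benjamini-Hochberg over all genes tested). The SE came from dividing the size of the log2 fold change by the root of F. CPM uses TMM-scaled totals of the tested genes, where 3 counts equal 0.259 to 0.306 CPM. Nothing in the labels says that libraries of a group are separate animals, so p-values measure the spread between these samples. The members and lists were chosen with earlier results of these data known. Named were all members, list genes past the threshold, and otherwise the tested gene with the highest CPM in a list with none. Further markers of other cell types or regions were chosen after their values were seen. So were Fabp6, Cpe, Ptprn, Resp18, Foxa2, Ghrl, Tac1, Tph1, Slc18a1, Maoa, Neurod1, Pcsk1, Ffar1, Glp1r and Dpp4. The procedure was also run on simulated data, and no result given here rests on that run. Other fits used DESeq2 1.42.0, voom of limma 3.58.1, RLE or upper-quartile factors, 2 other filters, a replicate block, 1 library left out at a time, glmTreat at 1.2-fold or a threshold of 0.1. Promoter sequences are from RefSeq (GRCm38.p6).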

Additional observations from a re-analysis of the deposited data

How the results depend on the processing

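Gcg and Sst passed in each of the 15 other fits. Member risers numbered 4 and ranged from 2 to 5 when 1 library was left out: 2 when controls 1 or 2 were dropped, and likewise for Myc-deleted libraries 2 and 3, then 3 when control 3 was dropped, and 5 when Myc-deleted library 1 was dropped, where Nts and Chga joined Gcg, Sst and Chgb. No member fell in any fit. With glmTreat against a 1.2-fold change there were 2 member risers, 230 risers and 178 fallers over all genes, and 1 riser and 0 fallers in the related lists. At a threshold of 0.1 these were 824 and 748 over all genes, with 2 related fallers, as with upper-quartile scaling (2) and the stricter filter (2). Leaving out 1 library gave 229 to 503 risers and 233 to 447 fallers over all genes, and 1 to 3 risers and 0 to 1 fallers in the related lists. The log2 fold change of Sct ranged from -0.0607 to 0.0563 in these runs, and its sign turned when the first library of the controls (0.0551) or of the Myc-deleted group (0.0563) was left out. Without Nts in the sum, the share differences (Myc-deleted minus control, in percentage points) were 7.85 for Gcg, 4.72 for Sst, -4.28 for Pyy and -8.52 for Sct, against 5.44, 3.36, -2.46 and -5.19. Correlations of same-numbered deviations were weak (0.0189 to 0.0524), although each library correlated best with its own number. Whether replicate numbers pair the libraries is therefore not settled. With the replicate block 4 members rose, as without it, and 552 genes rose and 428 fell over all. TMM without ribosomal protein genes, chosen after seeing the data, left 4 risers. Cck had 19 to 62 counts per library and Gip 44 to 95, and whether depth limits their calls was not tested.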
